A study of Mus musculus with 13 samples.

Results

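Zbtb16, Nfil3, Tox, Tox2, Rora, Il2rb, Il18r1, Il1rl1 and Klrd1 are genes of innate lymphoid and natural killer (NK) cell priming. They were chosen by gene symbol, and all 9 had a row among the 24072 RefSeq identifiers of the count files. RNA sequencing measured them in common lymphoid progenitors (CLP) from the bone marrow of wild-type C57BL/6 mice, cells that can still give rise to B, T, NK and innate lymphoid cells. Flow cytometry sorted the CLP on 2 surface proteins, Ly6D and the neurturin receptor subunit Gfra2. The Ly6D+Gfra2+ group had 3 libraries, the Ly6D+Gfra2- group 4 and the Ly6D-Gfra2- group 6. All groups share genotype and strain. The labels give no age, sex or number of animals, and they do not say that replicates are separate animals. The p-values therefore measure only the spread between these libraries.

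Innate lymphoid cells (ILC) and NK cells are lymphocytes without rearranged antigen receptors, and they develop from the same bone marrow progenitors as B and T cells. Nfil3 and Tox are transcription factors required early in this branch, and Zbtb16 (PLZF) marks a precursor of helper-type ILC. Commitment is accompanied by receptors for the cytokines that these cells depend on or react to. Il2rb is a shared receptor chain for interleukin 2 and interleukin 15, Il18r1 binds interleukin 18 and Il1rl1 (ST2) binds interleukin 33. In a progenitor that still expresses no effector gene, low levels of such genes are described as priming.

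Nfil3 is the member whose group difference passed the test below, and the sequence around its RefSeq start is shown for that reason. Promoter sequences of 5 members (Nfil3, Tox2, Rora, Il18r1 and Il1rl1) were matched in RefSeq, build GRCm38.p6. The Nfil3 start lies inside the gene's outermost annotated span, on the minus strand of chromosome 13. The first stretch is chr13:52981074-52981289 (minus strand), with the E-box letters CANNTG in capitals, the motif that E proteins and their relatives read. The second is chr13:52981037-52981060 (minus strand), with the complement of AGGTCA, the half-site of ROR receptors such as Rora, in capitals.
Nfil3 upstream: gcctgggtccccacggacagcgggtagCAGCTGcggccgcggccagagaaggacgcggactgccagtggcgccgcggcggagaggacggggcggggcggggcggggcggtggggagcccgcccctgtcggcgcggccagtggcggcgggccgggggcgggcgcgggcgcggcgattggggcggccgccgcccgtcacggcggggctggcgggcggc
Nfil3 start region: gctcggaacTGACCTactaacaca
On both strands the window held 1 E-box, 223 bases before the start, and 1 ROR half-site, 12 bases before it. E-boxes occurred in 72.3% of the 32851 promoters of the same length, and ROR half-sites in 16.3%. The STAT motif TTCNNNGAA, found in 8.3% of promoters, and the D-box TTANGTAA to which NFIL3 itself binds, found in 2.32%, had no match in these letters. None of these motifs overlapped another in the window. The Nfil3 window was rich in G and C, at 81.7% against a median of 52.7%, and held 54 CpG dinucleotides against a median of 7 in all promoters. A match is a description of the letters and not a bound site.

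Levels are given as CPM, counts per 1000000 of the scaled library size. Libraries held between 6892728 and 23705975 counts, so that 3 counts corresponded to between 0.133 and 0.389 CPM. Genes with a count numbered 10837 to 12369 in Ly6D+Gfra2+ libraries, 11636 to 13364 in Ly6D+Gfra2- libraries and 12904 to 13969 in Ly6D-Gfra2- libraries. Gfra2 mRNA followed the sort, with 287 to 515 CPM in Ly6D+Gfra2+ libraries and at most 14.7 CPM in any other. Ly6d mRNA stood at 158 to 507 CPM in the Ly6D+ libraries and at 0.623 to 8.3 CPM in 5 of the 6 Ly6D-Gfra2- libraries. In the library labelled Ly6D-Gfra2- replicate 3, Ly6d stood at 213 CPM, against its label. Group means and list medians include this library, and fold changes and bounds against that group are given without it where stated. The names of the libraries begin with P or T, a prefix of unstated meaning. All Ly6D+Gfra2+ libraries are T, and so are replicates 5 and 6 of the Ly6D+Gfra2- group and replicates 4, 5 and 6 of the Ly6D-Gfra2- group. Of 7 CLP markers, all had a count in each group.

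**Figure D1:**
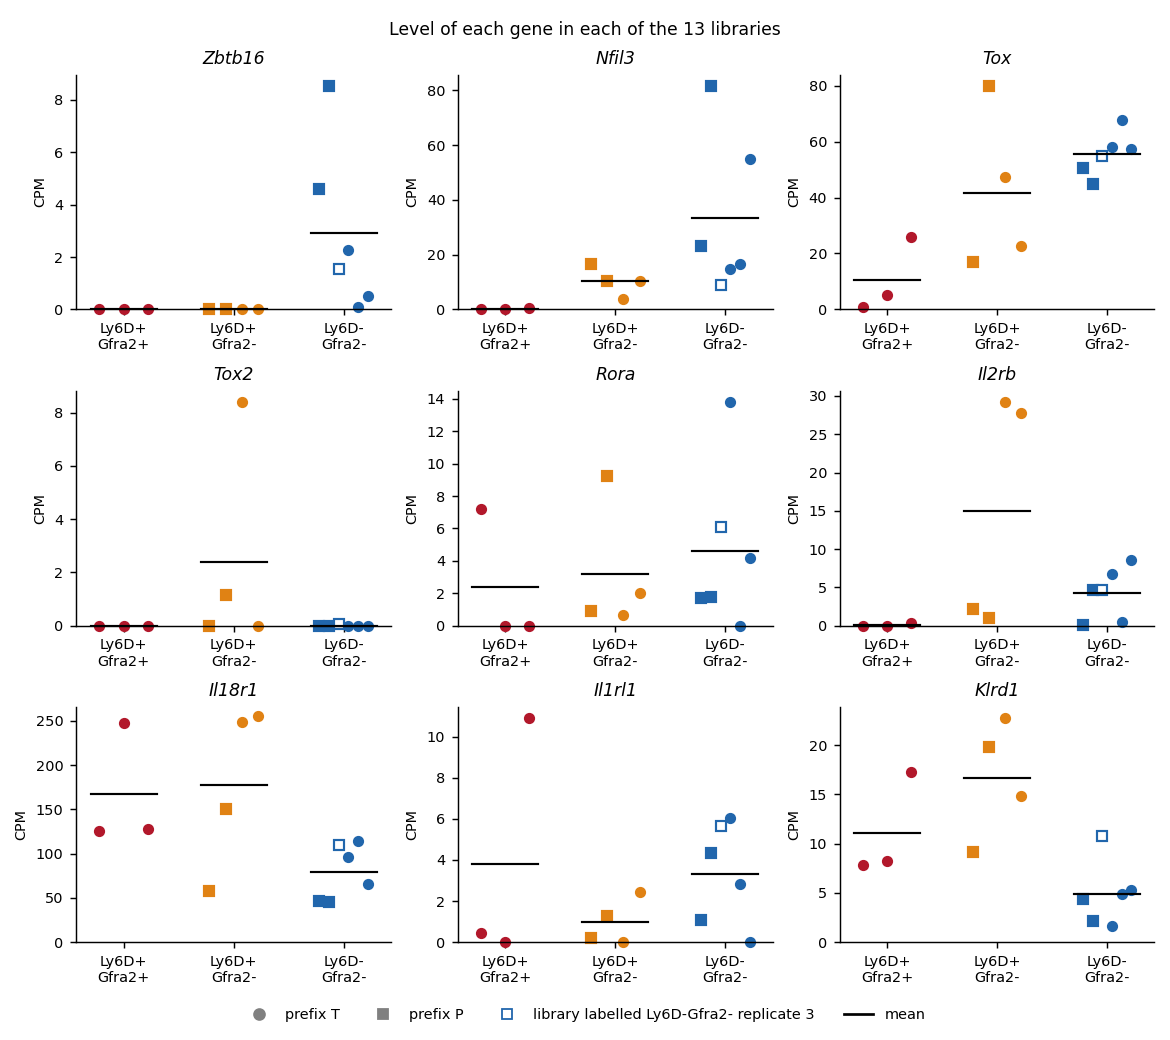
Level of each of the 9 genes (CPM, y axes starting at 0) in each library by group, with circles for prefix T, squares for prefix P, an open square for the library labelled Ly6D-Gfra2- replicate 3 and a line at the group mean. Zbtb16 was at 0 in all 7 Ly6D+ libraries, Nfil3 did not exceed 0.542 CPM in Ly6D+Gfra2+ libraries, and Il18r1 and Klrd1 had their higher means in the Ly6D+ groups.

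Zbtb16 (chromosome 9, 48651797 to 48836225) encodes the zinc finger factor PLZF. It had no count in any of the 3 Ly6D+Gfra2+ libraries or the 4 Ly6D+Gfra2- libraries. In Ly6D-Gfra2- libraries its lowest, median and highest levels were 0.0826, 1.91 and 8.54 CPM, the lowest being 1 count and the highest 192. Every Ly6D-Gfra2- library thus had a count, and the groups did not overlap, but the level was low and uneven within that group.

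Set against 3 counts over a group's libraries together, summed Zbtb16 counts were at least 31.7-fold lower in Ly6D+Gfra2+ cells and at least 67.1-fold lower in Ly6D+Gfra2- cells than in Ly6D-Gfra2- cells. Without Ly6D-Gfra2- replicate 2, the highest library, these bounds were 15.2-fold and 32.2-fold, and without replicate 3, the library with Ly6d mRNA, they were 37.8-fold and 80-fold. Within prefix T, where Ly6D-Gfra2- libraries held 24 of the 294 counts, they were 7.46-fold and 5.83-fold. Such bounds cover counting error only. The edgeR quasi-likelihood test did not call the gene, with an adjusted p of 0.242 for Ly6D+Gfra2+ against Ly6D-Gfra2- cells and 0.807 for Ly6D+Gfra2- against Ly6D-Gfra2- cells. DESeq2 called the second difference, with an adjusted p of 0.048.

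A gene without a count in any Ly6D+ library but with a count in every Ly6D-Gfra2- library was uncommon. Of the 12722 genes tested, 4 had this pattern (0.0314%), namely Mc5r, Zbtb16, Dusp4 and Dach1. The pattern was chosen after the values were seen, so this share is a description and no test of Zbtb16. For Zbtb16 it also rests on 1 count in Ly6D-Gfra2- replicate 5. Summed levels of 8 mast cell and basophil markers were 0 to 4.92 CPM in Ly6D+Gfra2+, 0.964 to 10.9 CPM in Ly6D+Gfra2- and 7.39 to 25 CPM in Ly6D-Gfra2- libraries. Of these markers 2, 3 and 7 had a count in the 3 groups, which also differ in number of libraries and summed depth. Ms4a2, Fcer1a and Prss34 were at 0 in both Ly6D+ groups, and also in 4, 5 and 3 of the 6 Ly6D-Gfra2- libraries. Mcpt8 and Hdc did not follow the order of the sums. Mcpt8 had 43, 0 and 143 counts, and Hdc averaged 0.108, 2.52 and 1.81 CPM. Summed levels of 10 granulocyte and monocyte markers were 207 to 436, 394 to 579 and 598 to 1504 CPM in the same group order. Mpo made up much of these sums, with means of 240, 409 and 792 CPM. Lyz2, Elane, Prtn3, S100a8 and S100a9 did not follow the order, having their lowest means in Ly6D+Gfra2- cells. Lyz2 averaged 89.7, 52.4 and 126 CPM. The part of either set of markers in the Zbtb16 result was not tested.

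Nfil3 (chromosome 13, 52967209 to 52982878) encodes a basic leucine zipper factor needed for the earliest ILC and NK precursors. Ly6D+Gfra2+ replicates 4, 5 and 6 had 0, 0 and 0.542 CPM, in all 5 counts in 1 library. Ly6D+Gfra2- replicates 1, 2, 5 and 6 had 16.7, 10.3, 3.83 and 10.4 CPM. Ly6D-Gfra2- libraries had a lowest, median and highest level of 9, 19.8 and 81.7 CPM. Both Gfra2- groups lay above every Ly6D+Gfra2+ library, while they overlapped each other.

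Nfil3 fell in Ly6D+Gfra2+ cells, at 0.181 ± 0.313 CPM (SD, n = 3), against 33.3 ± 28.7 CPM in Ly6D-Gfra2- cells (SD, n = 6). The log2 fold change was -7.10 (SE 1.35) with an adjusted p of 0.0167 in edgeR's test, and -7.19 with an adjusted p of 0.0135 without Ly6D-Gfra2- replicate 3. Over the 22 alternatives run it ranged from -11.43 to -6.43. The lowest value came without Ly6D+Gfra2+ replicate 6, which held the 5 counts, so that it was fitted against no count and is no bound. The call was lost within prefix T alone (adjusted p 0.0993) and without Ly6D-Gfra2- replicate 6 (adjusted p 0.0601). Against Ly6D+Gfra2- cells, at 10.3 ± 5.28 CPM (SD, n = 4), the log2 fold change was -5.36 (SE 1.30) and missed the threshold, with an adjusted p of 0.0814. That difference was called by DESeq2 (adjusted p 0.000156), without a filter on low counts (0.0189), without the prefix term (0.0415) and without Ly6D+Gfra2+ replicate 6 (0.0283), the last again against no count; the fold change ranged from -9.68 to -4.81.

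Between Ly6D+Gfra2- and Ly6D-Gfra2- cells the log2 fold change of Nfil3 was -1.75 (SE 0.85; edgeR adjusted p 0.999), and -1.99 without Ly6D-Gfra2- replicate 3. Fewer cells that express a gene and less of its RNA per cell cannot be told apart in such bulk libraries, here and in all that follows. The ranges of detected genes and of the mast cell and granulocyte marker sums given above also lay lowest in Ly6D+Gfra2+ libraries. They overlapped those of Ly6D+Gfra2- libraries, and their part in the result was not tested.

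Tox (chromosome 4, 6686353 to 6991557) encodes a high mobility group box factor of ILC, NK and T cell development. It reached 0.802, 5.03 and 25.8 CPM in Ly6D+Gfra2+ replicates 4, 5 and 6, against 16.9, 80, 47.5 and 22.6 CPM in Ly6D+Gfra2- replicates 1, 2, 5 and 6. Ly6D-Gfra2- libraries had a lowest, median and highest level of 44.7, 56.2 and 67.8 CPM. The Ly6D-Gfra2- libraries lay close together and above all Ly6D+Gfra2+ libraries, whereas the Ly6D+Gfra2- libraries spread across both ranges.

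The log2 fold change of Tox was -2.39 (SE 0.84; edgeR adjusted p 0.185) for Ly6D+Gfra2+ against Ly6D-Gfra2- cells and -1.98 (SE 0.88; adjusted p 0.347) against Ly6D+Gfra2- cells. Neither passed the threshold. Both did without Ly6D+Gfra2+ replicate 6, the highest of its group, at -4.25 (adjusted p 0.0221) and -3.83 (adjusted p 0.043). For Ly6D+Gfra2- against Ly6D-Gfra2- cells it was -0.41 (SE 0.66; adjusted p 0.999). Without Ly6D-Gfra2- replicate 3 the differences from Ly6D-Gfra2- cells were -2.39 (adjusted p 0.227) in Ly6D+Gfra2+ cells and -0.42 (adjusted p 1) in Ly6D+Gfra2- cells.

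Tox2 (chromosome 2, 163203058 to 163324172), a relative of Tox, was detected in few libraries. It had no count in Ly6D+Gfra2+ libraries, 0, 1.17, 8.4 and 0 CPM in Ly6D+Gfra2- replicates 1, 2, 5 and 6, and 1 count in all Ly6D-Gfra2- libraries together. It was the member left out of the test by the filter on low counts. Of its relatives, Tox4 was expressed at 92.2 ± 18.5, 117 ± 39.5 and 109 ± 16.1 CPM in Ly6D+Gfra2+, Ly6D+Gfra2- and Ly6D-Gfra2- cells (SD, n = 3, 4 and 6). Tox3 had no count in Ly6D+Gfra2+ cells, against 2.91 ± 3.57 CPM in Ly6D+Gfra2- cells and 5.69 ± 5.13 CPM in Ly6D-Gfra2- cells (SD, n = 4 and 6). Summed Tox3 counts were at least 21.1-fold and 44.9-fold lower in Ly6D+Gfra2+ cells than in these groups (10.3-fold and 30-fold without the highest library of each, and 49.4-fold against Ly6D-Gfra2- cells without replicate 3). The edgeR adjusted p were 0.171 and 0.092, and DESeq2 called both differences, with 0.00772 and 0.00063.

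Rora (chromosome 9, 68653404 to 69388246) encodes a nuclear receptor that is needed for type 2 ILC. Ly6D+Gfra2+ replicates 4, 5 and 6 had 7.22, 0 and 0 CPM, and Ly6D+Gfra2- replicates 1, 2, 5 and 6 had 0.909, 9.24, 0.653 and 2.03 CPM. Ly6D-Gfra2- libraries ran from 0 to 13.8 CPM with a median of 2.97 CPM. In both Ly6D+ groups 1 library held the larger part of the signal, and the 3 groups overlapped. Its log2 fold change was -0.28 (SE 2.28; edgeR adjusted p 0.973) for Ly6D+Gfra2+ against Ly6D+Gfra2- cells. It was -0.58 (SE 1.75; adjusted p 0.999) for Ly6D+Gfra2- against Ly6D-Gfra2- cells. For Ly6D+Gfra2+ against Ly6D-Gfra2- cells it was -0.87 (SE 1.86; adjusted p 0.887). Without Ly6D-Gfra2- replicate 3 the differences from that group were -0.83 (adjusted p 0.909) in Ly6D+Gfra2+ cells and -0.39 (adjusted p 1) in Ly6D+Gfra2- cells.

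Il2rb (chromosome 15, 78479256 to 78511621), the interleukin 2 and interleukin 15 receptor chain, varied widely among the libraries. It had 0, 0 and 0.325 CPM in Ly6D+Gfra2+ replicates 4, 5 and 6, which is 3 counts. Ly6D+Gfra2- replicates 1 and 2, of prefix P, had 2.21 and 0.964 CPM, and replicates 5 and 6, of prefix T, had 29.2 and 27.8 CPM. Ly6D-Gfra2- libraries had a lowest, median and highest level of 0.0995, 4.69 and 8.56 CPM. All Ly6D+Gfra2- libraries lay above the Ly6D+Gfra2+ libraries, and those of prefix T lay above every other library.

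The summed level of Il2rb in Ly6D+Gfra2+ cells was lower than in Ly6D+Gfra2- cells by a ratio of 101 (95% counting interval 34.4 to 490), and by 63.8 (21.6 to 311) without Ly6D+Gfra2- replicate 5. Against Ly6D-Gfra2- cells the ratio was 35.8 (12.2 to 175), and without replicate 3 it was 33.9 (11.5 to 166). Within prefix T the ratios were 250 (85.3 to 1218) and 40.1 (13.4 to 197). With the spread between libraries taken into account, edgeR gave adjusted p of 0.116 and 0.128, and DESeq2 called both, with 0.000524 and 0.00182.

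Between Ly6D+Gfra2- and Ly6D-Gfra2- cells the log2 fold change of Il2rb was 0.95 (SE 1.32; edgeR adjusted p 0.999). Within prefix T it was 2.43, while within prefix P it was -1.0, and -0.60 without replicate 3. The difference between the prefixes was 3.44 on the log2 scale (SE 1.89), with an adjusted p of 0.717 for the interaction term over 12140 genes. Of the Il2rb partner chains, Il2rg was detected in every library. Il15ra was at 0 in 2 of 3 Ly6D+Gfra2+ and 1 of 4 Ly6D+Gfra2- libraries. Il2ra was at 0 in 2 of 3 Ly6D+Gfra2+, 3 of 4 Ly6D+Gfra2- and 5 of 6 Ly6D-Gfra2- libraries. Il2rg, the common gamma chain, stood at 228 ± 68, 161 ± 93.9 and 126 ± 32.5 CPM, and Il15ra at 2.75 ± 4.76, 2.99 ± 3.82 and 8.62 ± 4.51 CPM in Ly6D+Gfra2+, Ly6D+Gfra2- and Ly6D-Gfra2- cells (SD, n = 3, 4 and 6).

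Il18r1 (chromosome 1, 40465552 to 40500854), the ligand-binding chain of the interleukin 18 receptor, was the most abundant member in every group when levels were divided by transcript length. Its mean level per kilobase was 40.1, 42.8 and 19.2 CPM in Ly6D+Gfra2+, Ly6D+Gfra2- and Ly6D-Gfra2- cells, the next member standing at 12.4, 18.6 and 16.5 CPM per kilobase (Klrd1, Klrd1 and Nfil3). Its ligand is a cytokine that acts on NK cells and ILC as well as T cells. Without division by length it had 125, 248 and 128 CPM in Ly6D+Gfra2+ replicates 4, 5 and 6. Ly6D+Gfra2- replicates 1, 2, 5 and 6 had 58.3, 150, 249 and 255 CPM. Ly6D-Gfra2- libraries had 45.3, 81.3 and 114 CPM as lowest, median and highest level. All Ly6D+Gfra2+ libraries lay above the Ly6D-Gfra2- libraries, and the Ly6D+Gfra2- group overlapped both.

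The log2 fold change of Il18r1 was 1.05 (SE 0.35; edgeR adjusted p 0.807) for Ly6D+Gfra2- against Ly6D-Gfra2- cells, and 1.33 (adjusted p 0.246) without Ly6D-Gfra2- replicate 3. The value was 0.68 (SE 0.43; adjusted p 0.477) for Ly6D+Gfra2+ against Ly6D-Gfra2- cells and -0.37 (SE 0.44; adjusted p 0.774) for Ly6D+Gfra2+ against Ly6D+Gfra2- cells. None passed the threshold. Il18rap, the signalling chain of the same receptor, stood at 289 ± 48, 373 ± 94.8 and 319 ± 96 CPM in Ly6D+Gfra2+, Ly6D+Gfra2- and Ly6D-Gfra2- cells (SD, n = 3, 4 and 6).

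Il1rl1 (chromosome 1, 40404864 to 40465418), the interleukin 33 receptor, ends 133 bases before Il18r1 in the annotation, and the counting strand is not given in the sources used here. Ly6D+Gfra2+ replicates 4, 5 and 6 had 0.458, 0 and 10.9 CPM of Il1rl1. Ly6D+Gfra2- replicates 1, 2, 5 and 6 had 0.195, 1.27, 0 and 2.44 CPM, and Ly6D-Gfra2- libraries 0, 3.56 and 6.07 CPM as lowest, median and highest level. All groups overlapped, and no difference passed the test, with edgeR adjusted p of 0.736 for Ly6D+Gfra2+ against Ly6D+Gfra2-, 0.999 for Ly6D+Gfra2- against Ly6D-Gfra2- and 0.984 for Ly6D+Gfra2+ against Ly6D-Gfra2- cells. Without Ly6D-Gfra2- replicate 3 the log2 fold changes against that group were 0.25 (adjusted p 0.978) in Ly6D+Gfra2+ cells and -1.55 (adjusted p 1) in Ly6D+Gfra2- cells.

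The same stretch of chromosome 1 holds Il1r1, the interleukin 1 receptor (40222480 to 40316201), which passed the test in both comparisons with Ly6D+Gfra2+ cells. It fell to 31.4 ± 7.76 CPM in Ly6D+Gfra2+ cells, against 115 ± 43.3 CPM in Ly6D+Gfra2- cells and 168 ± 63.4 CPM in Ly6D-Gfra2- cells (SD, n = 3, 4 and 6). Its log2 fold change was -2.12 (SE 0.44; edgeR adjusted p 0.0451) against Ly6D+Gfra2- cells and -2.60 (SE 0.42; adjusted p 0.00465) against Ly6D-Gfra2- cells. The first call was lost under 13 of 22 alternatives, within prefix T among them (adjusted p 0.119), with a highest adjusted p of 0.798. The second held under all 22, and was -2.66 (adjusted p 0.00214) without Ly6D-Gfra2- replicate 3.

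Klrd1 (chromosome 6, 129588092 to 129598775) encodes CD94, the chain that pairs with NKG2 proteins on NK cells. It had 7.79, 8.26 and 17.3 CPM in Ly6D+Gfra2+ replicates 4, 5 and 6, and 9.15, 19.8, 22.8 and 14.8 CPM in Ly6D+Gfra2- replicates 1, 2, 5 and 6. Ly6D-Gfra2- libraries had 1.67, 4.63 and 10.8 CPM as lowest, median and highest level. The highest Ly6D-Gfra2- value was that of replicate 3, the library with Ly6d mRNA. Without it the highest was 5.32 CPM, below every Ly6D+ library. With all libraries kept, both Ly6D+ groups overlapped the Ly6D-Gfra2- group. The share of all genes that separate without replicate 3 is not given here, so the separation is a description only.

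The log2 fold change of Klrd1 was 1.79 (SE 0.73; edgeR adjusted p 0.988) for Ly6D+Gfra2- against Ly6D-Gfra2- cells, and 2.20 (adjusted p 0.895) without replicate 3. For Ly6D+Gfra2+ against Ly6D-Gfra2- cells it was 1.29 (SE 0.89; adjusted p 0.53), and 1.47 (adjusted p 0.481) without replicate 3. For Ly6D+Gfra2+ against Ly6D+Gfra2- cells it was -0.50 (SE 0.91; adjusted p 0.867). None of these passed the threshold. The NKG2 partner genes Klrc1 and Klrc2 were at 0 in both Ly6D+ groups. Klrc1 had 17 counts in all Ly6D-Gfra2- libraries together, and Klrc2 had none in any library.

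**Figure D2:**
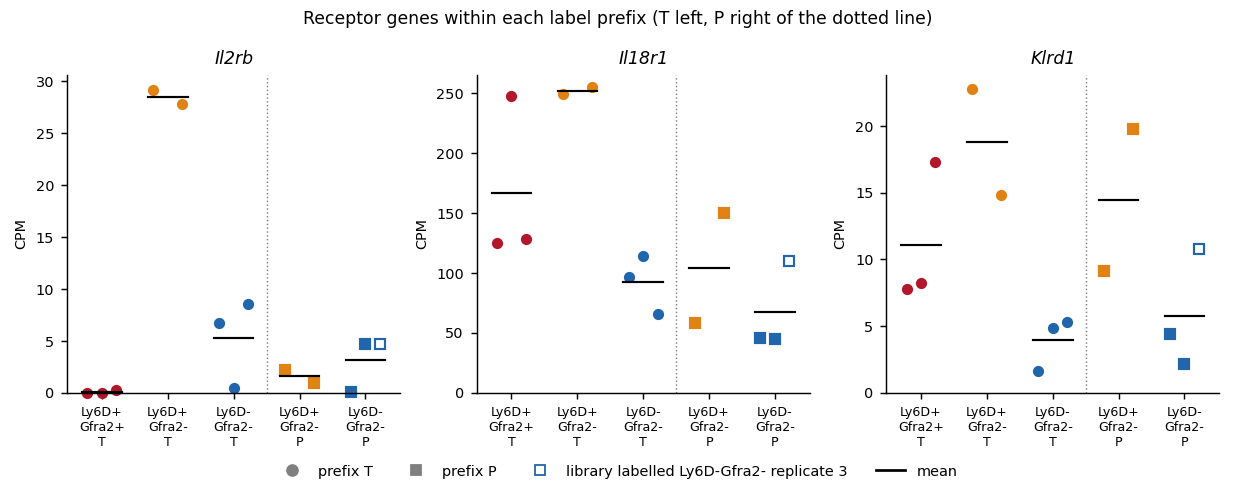
Levels of Il2rb, Il18r1 and Klrd1 (CPM, y axes starting at 0) in each library, split by prefix, with T left and P right of the dotted line and the mean of each set as a line. In Ly6D+Gfra2- cells Il2rb was at 29.2 and 27.8 CPM in prefix T and at 2.21 and 0.964 CPM in prefix P, while Klrd1 means were higher in Ly6D+ than in Ly6D-Gfra2- cells on both sides.

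Between Ly6D+Gfra2+ and Ly6D+Gfra2- cells, which differ in the surface protein Gfra2, 0 of 7 tested members passed edgeR's adjusted p of 0.05, Zbtb16 having no count in either group, where 52 of 12722 genes did (0.409%). At an unadjusted p under 0.05 there were 3 members (Nfil3, Il2rb and Tox) and 1677 genes (13.2%). DESeq2 called 2 members, Nfil3 and Il2rb, and 708 of 12355 genes (5.73%). In Nfil3 and Il2rb the groups did not overlap, with every Ly6D+Gfra2+ library lower, as in 5.71% of all genes (9.71% in either direction). The median log2 fold change of the 7 members was -0.50, and that of all genes 0.03.

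Between Ly6D+Gfra2- and Ly6D-Gfra2- cells, which differ in Ly6D, edgeR called 0 of 8 members and 0 of 12722 genes (0%). At an unadjusted p under 0.05 there were 3 members (Zbtb16, Il18r1 and Klrd1) and 599 genes (4.71%). DESeq2 called 1 member, Zbtb16, and 52 of 14253 genes (0.365%). In Zbtb16 alone of the 9 members the groups did not overlap, with every Ly6D+Gfra2- library lower, as in 0.951% of all genes (1.53% in either direction). The median log2 fold change of the 8 members was -0.50, and that of all genes -0.01.

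Between Ly6D+Gfra2+ and Ly6D-Gfra2- cells edgeR called 1 of 8 members, Nfil3, and 177 of 12722 genes (1.39%). At an unadjusted p under 0.05 there were 4 members (Zbtb16, Nfil3, Tox and Il2rb) and 1953 genes (15.4%). DESeq2 called 2, Nfil3 and Il2rb, and 940 of 13103 genes (7.17%). Zbtb16, Nfil3 and Tox were lower in every Ly6D+Gfra2+ library than in any Ly6D-Gfra2- library, as were 6.19% of all genes, and Il18r1 was higher in every one. A separation in either direction was found in 10.2% of all genes. The median log2 fold change of the 8 members was -1.63, and that of all genes 0.01. This comparison shares its libraries with both others.

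**Figure D3:**
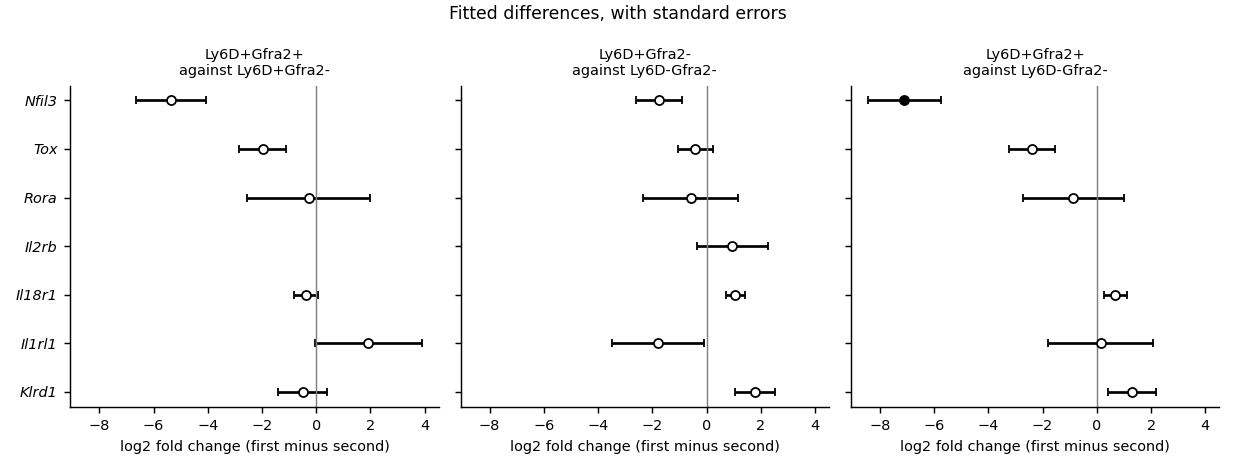
Fitted log2 fold changes (x axis, first group minus second) for 7 members in the 3 comparisons, filled where the adjusted p was under 0.05. Bars are standard errors derived from the F value of edgeR's test. Zbtb16, at 0 in both Ly6D+ groups, and Tox2, not tested, are not drawn, nor is Il2rb in Ly6D+Gfra2+ cells, where it had 3 counts. The one filled point is Nfil3 at -7.10 in Ly6D+Gfra2+ against Ly6D-Gfra2- cells.

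Other transcription factors of the ILC and NK branch were read from a list of 15, of which 10 were tested. In Ly6D+Gfra2+ cells edgeR called 1 lower against Ly6D+Gfra2- cells and 2 lower against Ly6D-Gfra2- cells, and none higher in either comparison. Ikzf2 (Helios), a zinc finger factor of ILC and T cell subsets, fell to 0.801 ± 1.1 CPM in Ly6D+Gfra2+ cells, against 31 ± 19.5 CPM in Ly6D+Gfra2- cells and 59.5 ± 15.8 CPM in Ly6D-Gfra2- cells (SD, n = 3, 4 and 6). Its log2 fold changes were -5.55 (SE 1.12; edgeR adjusted p 0.0428) and -6.51 (SE 1.15; adjusted p 0.0108). The first was lost under 14 of 22 alternatives, within prefix T among them (adjusted p 0.116), with a highest adjusted p of 0.793. The second was lost under none, and was -6.49 (adjusted p 0.0143) without Ly6D-Gfra2- replicate 3.

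Tcf7, which encodes TCF-1, a factor of early ILC and T cell progenitors, had 1 count in the 3 Ly6D+Gfra2+ libraries. It averaged 3.53 ± 2.18 CPM in Ly6D+Gfra2- cells and 11.1 ± 8.76 CPM in Ly6D-Gfra2- cells (SD, n = 4 and 6). Its summed level in Ly6D+Gfra2+ cells was lower than in Ly6D-Gfra2- cells by a ratio of 252 (95% counting interval 45.1 to 9961), with an edgeR adjusted p of 0.0204. The call was lost under 5 of 22 alternatives, with adjusted p up to 0.078: within prefix T, with a term for the replicate number, and without Ly6D+Gfra2+ replicate 5 or Ly6D-Gfra2- replicate 5 or 6. Without Ly6D-Gfra2- replicate 3 the ratio was 281 (50.3 to 11124). Against Ly6D+Gfra2- cells the ratio was 92.2 (16.4 to 3659), with an edgeR adjusted p of 0.0784, and DESeq2 called it (adjusted p 0.000332).

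Id2, the inhibitor of E proteins that all ILC express, stood at 19 ± 11.9, 13.8 ± 13.4 and 5.97 ± 5.51 CPM in Ly6D+Gfra2+, Ly6D+Gfra2- and Ly6D-Gfra2- cells (SD, n = 3, 4 and 6). Gata3, needed for helper-type ILC, stood at 0.566 ± 0.718, 0.967 ± 0.943 and 5.91 ± 4.48 CPM in the same order. Ets1, a factor of NK and B cells, averaged 305 ± 206 CPM in Ly6D+Gfra2+ cells and 107 ± 19.7 CPM in Ly6D-Gfra2- cells, with an edgeR adjusted p of 0.0538. DESeq2 called it (adjusted p 0.00815) and also called Batf, an activator protein 1 factor, lower in the same comparison (log2 fold change -3.01, adjusted p 0.0226). Tbx21 (T-bet), a factor of mature NK cells, was at 0 in Ly6D+Gfra2+ and Ly6D-Gfra2- cells and had 13 counts in 1 Ly6D+Gfra2- library. Eomes had 1 count in all libraries, and Runx3 stood at 112, 129 and 179 CPM in Ly6D+Gfra2+, Ly6D+Gfra2- and Ly6D-Gfra2- cells. Between Ly6D+Gfra2- and Ly6D-Gfra2- cells edgeR and DESeq2 called none of the 10, Gfi1, Gata3 and Runx3 having the smallest p (adjusted p 0.999 each). The median log2 fold change of the list was -0.16, -0.94 and -1.01 in the order of the comparisons above, against 0.03, -0.01 and 0.01 for all genes.

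**Figure D4:**
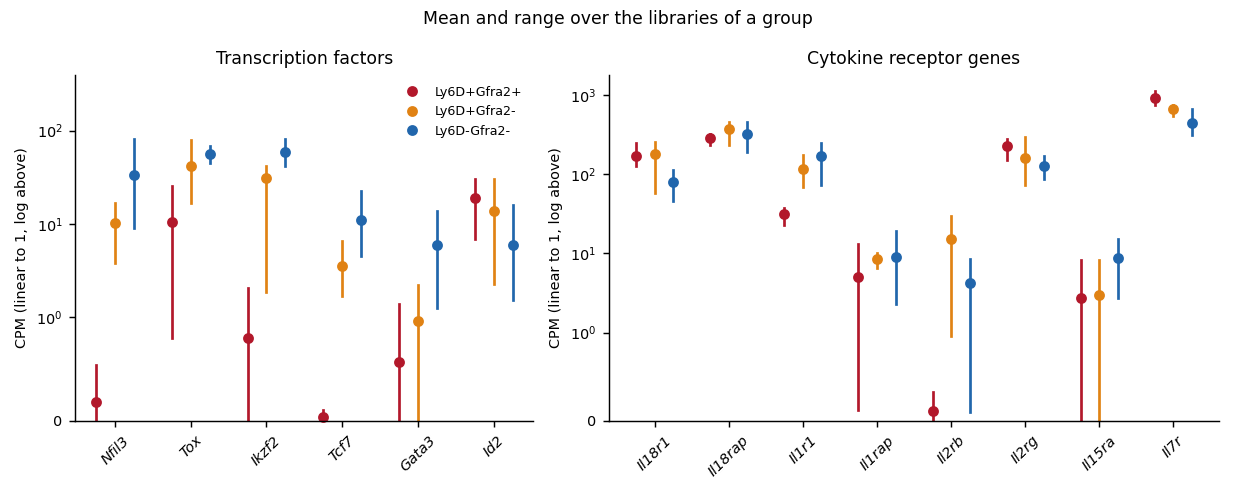
Mean level (points) and range over libraries (lines) of 6 transcription factor genes and 8 cytokine receptor genes in the 3 groups, in CPM on an axis that is linear up to 1 and logarithmic above. Nfil3, Ikzf2, Tcf7 and Il1r1 had Ly6D+Gfra2+ ranges below those of Ly6D-Gfra2- cells, while Il7r had its highest mean, 926 CPM, in Ly6D+Gfra2+ cells.

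Among 16 ILC and NK cytokine receptor genes, 13 were tested. Against Ly6D+Gfra2- cells, 1 fell in Ly6D+Gfra2+ cells (Il1r1) and none rose. Against Ly6D-Gfra2- cells, 1 fell (Il1r1) and 1 rose, Il7r, the interleukin 7 receptor on which early lymphocytes and ILC depend. Il7r stood at 926 ± 185 CPM in Ly6D+Gfra2+ cells and 441 ± 130 CPM in Ly6D-Gfra2- cells (SD, n = 3 and 6), a log2 fold change of 1.19 (SE 0.24; edgeR adjusted p 0.0228), and 1.25 (adjusted p 0.0102) without Ly6D-Gfra2- replicate 3. The call was lost under 5 of 22 alternatives, with adjusted p up to 0.0997: when scaled by library size alone, and without Ly6D+Gfra2+ replicate 4 or Ly6D-Gfra2- replicate 4, 5 or 6. Il17rb, the interleukin 25 receptor of type 2 ILC, averaged 10.4 ± 10.4, 42.6 ± 7.57 and 19.1 ± 9.15 CPM in Ly6D+Gfra2+, Ly6D+Gfra2- and Ly6D-Gfra2- cells, with an adjusted p of 0.309 between the first pair and 0.999 between the second. Il4ra averaged 18.7 ± 24.7 CPM in Ly6D+Gfra2+ cells and 61.1 ± 28.1 CPM in Ly6D-Gfra2- cells (adjusted p 0.221). No receptor gene was called by edgeR or DESeq2 between Ly6D+Gfra2- and Ly6D-Gfra2- cells. The medians of the list were 0.09, -0.19 and -0.47, in the same order as above.

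Of 12 signalling genes downstream of these receptors, all tested, edgeR called 0 in each comparison (5, 1 and 4 at an unadjusted p under 0.05). Tyrobp (DAP12), the adaptor of activating NK receptors, averaged 18 ± 10.7 CPM in Ly6D+Gfra2+ cells and 89.7 ± 17.7 CPM in Ly6D+Gfra2- cells (SD, n = 3 and 4; edgeR adjusted p 0.0814). That difference was called by DESeq2 (adjusted p 0.000792), without a filter on low counts (0.0391) and without the prefix term (0.0415). DESeq2 also called Traf6, an adaptor of the interleukin 1 receptor family, higher in Ly6D+Gfra2+ cells when set against Ly6D-Gfra2- cells (log2 fold change 0.79, adjusted p 0.00822). Traf6 averaged 208 ± 15.5 CPM in Ly6D+Gfra2+ cells and 137 ± 24.7 CPM in Ly6D-Gfra2- cells (SD, n = 3 and 6). The Ly6D-Gfra2- mean of Tyrobp was 47.3 ± 15.7 CPM (SD, n = 6). Stat6, which relays interleukin 4 signals, averaged 228 ± 147, 92.9 ± 40.1 and 106 ± 29.5 CPM in Ly6D+Gfra2+, Ly6D+Gfra2- and Ly6D-Gfra2- cells. The 2 differences from Ly6D+Gfra2+ cells had adjusted p of 0.21 and 0.199. The medians of the list were 0.41, 0.11 and 0.12.

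Of 23 NK receptor and effector genes 7 passed the filter on low counts, and 4 (Klrb1, Klrc2, Klrg1 and Cd226) had no count in any library. Neither edgeR nor DESeq2 called any of the 7 in any comparison (0, 0 and 1 at edgeR's unadjusted p under 0.05), and the medians were -0.27, -0.30 and -0.57. Ncr1 (NKp46), which marks mature NK cells, had no count in Ly6D+ libraries and 6 counts in 1 Ly6D-Gfra2- library. Klra4, an NK receptor gene of the Ly49 family of closely similar genes, whose reads the counting could share, did not pass the filter and had 451 counts (54 CPM) in 1 Ly6D+Gfra2+ library, against 16 counts in Ly6D+Gfra2- and 4 in Ly6D-Gfra2- cells. Gzma, a granzyme, had none in Ly6D+Gfra2+ cells, 16 counts in Ly6D+Gfra2- and 75 in Ly6D-Gfra2- cells. It was at 0 in 4 of the 6 Ly6D-Gfra2- libraries. In the same group order Ccl5 had 0, 42 and 74 counts and Fasl 0, 5 and 75. Without Ly6D+Gfra2- replicate 2, Ccl5 had 1 count in that group, and Fasl was at 0 in 5 of the 6 Ly6D-Gfra2- libraries. These are raw counts, and the summed scaled library sizes of the groups rose likewise, from 26318232 over 55672038 to 81297508. Other effector genes did not rise from group to group in this way. Gzmb had 0, 45 and 0 counts, Prf1 30, 23 and 14, and Ifng 69, 0 and 3. Nkg7, a granule protein gene, stood at 68.4 ± 61.4, 54.4 ± 9.98 and 57.8 ± 5.55 CPM, and Klrb1c (NK1.1) at 2.66 ± 0.869, 2.21 ± 2 and 1.26 ± 1.32 CPM in Ly6D+Gfra2+, Ly6D+Gfra2- and Ly6D-Gfra2- cells (SD, n = 3, 4 and 6). The summed level of 8 mature NK markers was 2.15 to 5.42, 0.325 to 6.72 and 0.0995 to 9.99 CPM in the same order. Of these 8, 2, 5 and 7 had a count, in groups that also differ in number of libraries and summed depth. Klrd1 and Klrc1 are not among the 8. Klrd1 was detected, while Ncr1, Eomes and Klrc1 were at or near 0.

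Among 18 ILC surface and effector genes, of which 11 were tested, edgeR called 1 higher in Ly6D+Gfra2+ cells when set against Ly6D-Gfra2- cells and 0 in the other comparisons (5 and 1 at an unadjusted p under 0.05), where DESeq2 also called 0. This was Itga4, an integrin chain of lymphocyte homing, at 1938 ± 147 CPM in Ly6D+Gfra2+ cells and 1388 ± 214 CPM in Ly6D-Gfra2- cells (SD, n = 3 and 6; log2 fold change 0.62, SE 0.14, edgeR adjusted p 0.0386). The call was lost under 13 of 22 alternatives, without Ly6D-Gfra2- replicate 3 among them, with adjusted p up to 0.256. Its partner Itgb7 averaged 2.44 ± 4.23, 27.8 ± 14.5 and 29.2 ± 17.6 CPM in Ly6D+Gfra2+, Ly6D+Gfra2- and Ly6D-Gfra2- cells, with edgeR adjusted p of 0.306 and 0.247 for Ly6D+Gfra2+ cells against the others. All Itgb7 counts of Ly6D+Gfra2+ cells were in replicate 4, and without that library, with no count left in the group, edgeR called both differences lower (adjusted p 0.0109 and 0.00431). The medians of the list were 0.50, 0.12 and 0.33. The list of 20 family relatives, 16 tested, had no gene called by edgeR other than Il1r1, and medians of -0.64, -0.08 and -0.40. Among them Nr1d1, a nuclear receptor that reads the same half-site as Rora, averaged 29.9 ± 6.54 CPM in Ly6D+Gfra2+ cells and 12.2 ± 12.7 CPM in Ly6D-Gfra2- cells (SD, n = 3 and 6). The adjusted p of this difference was 0.0637 in edgeR and 0.00388 in DESeq2. Its mean in Ly6D+Gfra2- cells was higher and uneven, at 64.4 ± 101 CPM (SD, n = 4), with libraries from 12 to 216 CPM.

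Across the 13 libraries, log2 levels of Nfil3 and Tox had a Pearson r of 0.79, and those of Il18r1 and Klrd1 of 0.64. Zbtb16 ran against both receptor genes, with r of -0.75 for Klrd1 and -0.70 for Il18r1. The correlations are descriptions, since the libraries share their sorted groups and their amplification. Of 11094 genes compared, the levels most like those of Nfil3 were Snx15 (r = 0.95), Nav1 (0.94) and Bpnt1 (0.94), and those most like Tox were Bcat2 (0.97), Ccdc173 (0.96) and Wdcp (0.94). Il2rb was most like Grk3 (0.87), Gria3 (0.86) and Stau2 (0.85), and Il18r1 was most like Phkb (0.85), Nfkb2 (0.85) and Glcci1 (0.84). Klrd1 was most like Chst3 (0.91), Ly6d (0.88) and Tpm4 (0.86), Ly6d being the mRNA of the protein used in the sort.

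Markers of other lineages were read beside these results. B-lineage markers summed to 2734 to 3284 CPM in Ly6D+Gfra2+, 458 to 623 CPM in Ly6D+Gfra2- and 142 to 621 CPM in Ly6D-Gfra2- libraries. Plasmacytoid dendritic cell markers summed to 556 to 905, 1899 to 2170 and 809 to 2149 CPM in the same order, T cell markers to 124 to 135, 96.9 to 232 and 90.6 to 165 CPM, and erythroid markers to 4.01 to 63.2, 1.21 to 42.8 and 6.9 to 365 CPM. Of 10 B-lineage markers all had a count in each group, and of 9 T cell markers 7, 8 and 9 had a count in the same order. Such detection also depends on the number and depth of a group's libraries. Cd3g, a chain of the T cell receptor complex, was at 0 in both Ly6D+ groups and in 5 of the 6 Ly6D-Gfra2- libraries. Its relatives had counts in each group, with 2, 15 and 12 for Cd3e and 2, 9 and 22 for Cd3d. The part of these cells in the members' levels was not tested.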

How the data were processed

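The authors deposited 1 file per library, with raw counts for each RefSeq identifier, per the file headers; per the submitters' processing notes FastQC, HISAT, TopHat, HOMER, DESeq and build mm10 were used, with role and versions not given in the sources used here. Per the labels, total RNA was purified with a Qiagen micro kit and amplified with NuGEN Ovation kits. Amplified reads are not separate molecules, so intervals and bounds cover counting error only. Names and coordinates come from RefSeq GRCm38.p6 (23815 identifiers named, 144 from GENCODE, 113 unnamed) and the gene span is the outermost annotated one.

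Counts of all 13 libraries entered 1 edgeR 4.0.16 quasi-likelihood fit (R 4.3.3) with terms for group and prefix and TMM scaling, after filterByExpr (minimum count 10, minimum total 15), with 12722 genes remaining. The threshold was a Benjamini-Hochberg adjusted two-sided p under 0.05. A fold change is log2, first group minus second. Its standard error (SE) was derived from edgeR's test, as the size of the fold change over the square root of the F value. The SE therefore restates the p and is no separate evidence. Levels per kilobase used the transcript length of the identifier. Genes without counts in a group are given as bounds against 3 counts over the group, and those with 1 to 3 counts as ratios with an exact 95% interval. Likeness is Pearson's r of log2 CPM (prior count 2), for members that averaged 5 CPM or more in some group.

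Named were the 9 members, called genes of each list, otherwise the 3 genes of smallest p (not all of which are printed), and partner genes. The members and lists were chosen with earlier results of these data known. Alternatives were DESeq2 1.42.0, other scalings, filters, terms and sets of libraries, and each library left out in turn. The fits were tested on simulated data. The listed factor Zfp683 was not analysed here. No library pair of a group held the same counts.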

Additional observations from a re-analysis of the deposited data

Results flagged for a closer look

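Each set of libraries with 4 to 10 members was examined for a library far from the rest, in 17 sets of gene and group. Chance alone places about 1 in 20 sets beyond the critical value where values spread normally, and 3 were beyond it. Levels with many zeros do not spread normally, so this number cannot show an excess. Tox2 in Ly6D+Gfra2- replicate 5 was at 8.4 CPM, the next library of its group being at 1.17 CPM. Tox2 in the library labelled Ly6D-Gfra2- replicate 3 was at 0.0486 CPM, a single count where the others had 0. Rora in Ly6D+Gfra2- replicate 2 was at 9.24 CPM, the next being at 2.03 CPM.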

How the results depend on the processing

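Relative to 52, 0 and 177 called genes and 0, 0 and 1 called members (Ly6D+Gfra2+ against Ly6D+Gfra2-, Ly6D+Gfra2- against Ly6D-Gfra2-, Ly6D+Gfra2+ against Ly6D-Gfra2-), DESeq2 called 708, 52 and 940 genes and 2, 1 and 2 members. Without a filter on low counts 164, 9 and 318 genes were called, and 1 member in the first comparison, which also had 103 genes and 1 member without the prefix term. With only the 2 groups compared the first and last comparisons had 8 and 72 genes, and within prefix T the 3 had 9, 1 and 62 genes with 0 members. Leaving out 1 library at a time gave 12 to 184, 0 to 16 and 49 to 372 genes, and 0 to 2 members in the first and last comparisons. The 2 members came without Ly6D+Gfra2+ replicate 6 (Nfil3 and Tox), and 0 in the last without Ly6D-Gfra2- replicate 6. In the first comparison Ly6D-Gfra2- replicates 1, 2, 4, 5 and 6, Ly6D+Gfra2- replicates 2, 5 and 6, and all Ly6D+Gfra2+ replicates moved the gene count by more than 1.5 times when left out, and in the second Ly6D-Gfra2- replicate 3 did. In the last, Ly6D-Gfra2- replicates 1, 4, 5 and 6, Ly6D+Gfra2+ replicates 5 and 6 and Ly6D+Gfra2- replicate 6 did. With library size alone as scaling, the last comparison had 111 genes, 45 higher and 66 lower, against 118 higher and 59 lower; the median of all genes was then -0.25, against 0.01, and -0.15, against 0.03, in the first comparison. The cause of these changes was not tested.

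Same-numbered libraries did not deviate together (9 pairs, r of -0.05 to 0.04), and 18 other pairs had r of -0.07 to 0.07. The deviations were taken from means of few libraries, so they cannot decide whether the replicate numbers mark pairs. The main fit did not take them as pairs. With the replicate block in place of the prefix, 25, 8 and 92 genes were called, and 0, 0 and 1 members.

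Of 23 member fold changes, 16 kept their direction under all alternatives run. For Rora, Ly6D+Gfra2+ against Ly6D+Gfra2- cells gave 0.84 with the 2 groups alone, 0.83 within prefix T and -8.25 to 0.75 with 1 library left out. Ly6D+Gfra2- against Ly6D-Gfra2- cells gave 1.21 with the replicate block, 0.68 within prefix P, 1.55 there without replicate 3 (chosen after seeing the data) and -2.01 to 0.11 with 1 library left out. Ly6D+Gfra2+ against Ly6D-Gfra2- cells gave -8.83 to 0.54 with 1 library left out. Il1rl1 gave -2.07 to 3.97 in the first comparison with 1 library left out, and in the last -0.02 by library size alone, -2.43 with the replicate block and -3.85 to 0.76 with 1 library left out. In Ly6D+Gfra2- against Ly6D-Gfra2- cells, Il2rb gave -1.0 within prefix P and -0.60 there without replicate 3, and Tox 0.03 in that setting. DESeq2 gave no adjusted p for Tox. Of 24 further fold changes of partner genes that missed the threshold, none reversed over 544 values, and 19 values passed it. Tox2 and Zbtb16 had under 3 counts in 11 and 8 of the 13 libraries.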
